A study of Homo sapiens with 24 samples.

Results

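The comparison described here set WNK2-null chondrocytes against chondrocytes that carried the WNK2 transfection label, both kept in isotonic medium. Its members are 8 of the 24 RNA-seq libraries of the study, chosen by label alone: 4 libraries of WNK2-deleted cells (WNK2- Ctr) and 4 libraries labelled as WNK2-transfected cells (WNK2 trans Ctr). Both groups were made from T/C-28a2, an immortalised human chondrocyte line. WNK2- cells were one clonal line in which a CRISPR/Cas9 ribonucleoprotein had removed exon 2 of WNK2, the exon with the native start codon. Their label names no transfection with a WNK2 plasmid. By label and methods, WNK2 trans Ctr cells had the wild-type (WT) genotype and were given a WNK2 expression plasmid by lipofection, followed by culture without added sorbitol. The study asked how loss or excess of WNK2 alters the chondrocyte transcriptome with and without chronic hyperosmotic stress. The other groups, each of 4 libraries, were untransfected WT cells in isotonic medium (WT Ctr) or sorbitol (WT Sor), WNK2- cells in sorbitol (WNK2- Sor) and cells with the transfection label in sorbitol (WNK2 trans Sor). Genotype and clone cannot be told apart in any of these data. WNK2- Ctr and WNK2 trans Ctr also differed in the transfection label, for which values against WT Ctr are given.

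WNK kinases are serine/threonine kinases that sense chloride, crowding and cell volume. They phosphorylate the kinases SPAK (STK39) and OSR1 (OXSR1), which in turn switch the cation-chloride cotransporters of the SLC12 family. Cartilage is a tissue of high and changing osmolarity, and its chondrocytes build and remodel a matrix of type II collagen, aggrecan and hyaluronan.

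WNK2 did not differ between the groups in the direction of their labels. The normalised read counts of WNK2 (raw counts scaled to one library size) were 417, 404, 388 and 417 in WNK2- Ctr and 296, 238, 183 and 291 in WNK2 trans Ctr. Every WNK2- library lay above every library labelled as transfected, and the log2 fold change was 0.69 ± 0.20 (SE, n = 4 each, edgeR adjusted p = 0.00681). In WT Ctr the mean was 2520 ± 901 (SD, n = 4), so that WNK2- Ctr was lower than WT Ctr by a log2 fold change of -2.63 and WNK2 trans Ctr by -3.32. Of the sorbitol groups, WT Sor had a mean of 302.5 ± 19.0, WNK2- Sor had 359 ± 46.1 and WNK2 trans Sor had 3032.5 ± 706.5 (SD, n = 4 each). These are counts over the whole gene. A transcript that lacks one exon is still counted, so the counts do not check the deletion, but the libraries labelled WNK2 trans Ctr held less WNK2 RNA than untransfected WT Ctr, against their label. All directions below rest on the labels, and whether the cells of WNK2 trans Ctr carried the plasmid was not tested. Values against WT Ctr are set beside them, although those comparisons share the WNK2- Ctr or the WNK2 trans Ctr libraries with the one described.

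**Figure D1:**
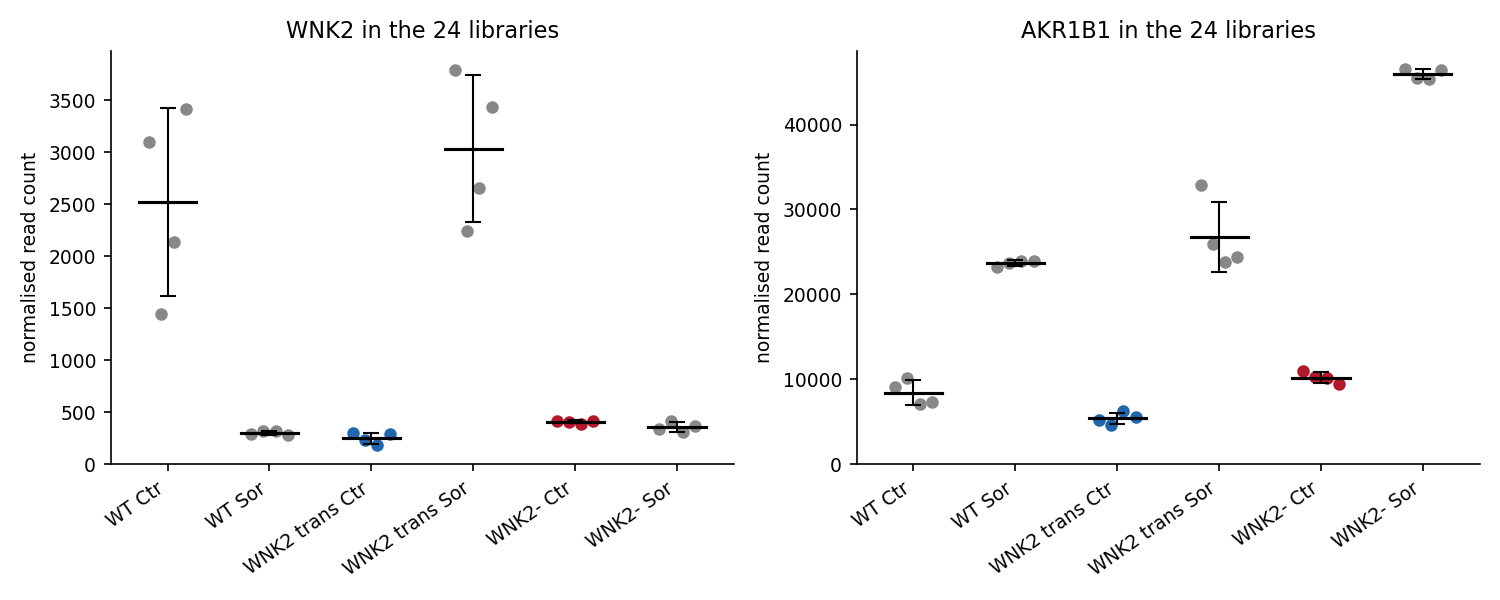
Normalised read counts of WNK2 (left) and of AKR1B1, aldose reductase (right), in all 24 libraries by group, with the mean (long line) and SD (bars) of 4 libraries; linear axes from 0. WNK2 was below 500 in both groups compared here (red and blue) and in WT Sor and WNK2- Sor, and AKR1B1 was higher in each sorbitol group than in its isotonic group.

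The sorbitol labels were followed by AKR1B1, the osmotically induced enzyme that makes sorbitol inside cells. The mean normalised count of AKR1B1 was 5388 in WNK2 trans Ctr and 10210 in WNK2- Ctr, against 23703 or more in the 3 sorbitol groups. Total counts ran from 20441364 to 22461641 in WNK2- Ctr and from 15178553 to 23239491 in WNK2 trans Ctr. The first principal component of the 500 most variable genes held 69.8% of the variance and placed the 4 WNK2- Ctr libraries between 26.82 and 27.95 and the 4 WNK2 trans Ctr libraries between -42.3 and -36.1, with WT Ctr between -29.7 and -23.3.

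Of 16600 genes with enough reads, 7924 (47.7%) were called, that is, had an edgeR adjusted p under 0.05. In WNK2- Ctr 3988 (24%) were higher and 3936 (23.7%) lower, and 3100 (18.7%) differed at least 2-fold. In 7888 genes (47.5%) the 4 normalised counts of one group all lay on one side of the 4 of the other. With close to 1 gene in 2 called, a list with 1 called member in 2 is at the background, and only the direction and size within a list add to that. Against WT Ctr, WNK2- Ctr had 42.1% of genes called (20.7% higher, 21.5% lower), and WNK2 trans Ctr had 12.5% (5.57% higher, 6.98% lower).

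The other members of the WNK family differed little. WNK4 was called higher (log2 fold change 0.37 ± 0.12, adjusted p = 0.0139), while WNK1 (0.27, adjusted p = 0.0881) and WNK3 (-0.32, adjusted p = 0.0982) were not called and overlapped between the groups. Of the 16 tested genes of the WNK pathway, 6 were higher and 2 lower, with a median log2 fold change of 0.09. The effector kinases STK39 and OXSR1 were both higher. STK39 was counted at 1168, 1128, 1142 and 1080 in WNK2- Ctr and at 621, 687, 551 and 627 in WNK2 trans Ctr (log2 fold change 0.86 ± 0.10, edgeR adjusted p = 9.85e-08), and OXSR1 rose by 0.36. The groups did not overlap for either kinase. The largest change of the pathway was in SLC12A7, the potassium-chloride cotransporter KCC4, at 3732, 3513, 3465 and 3806 against 1199, 1145, 1212 and 1289 (log2 fold change 1.58 ± 0.13, edgeR adjusted p = 1.86e-10). SLC12A7 lies in a stretch of chromosome 5 described below, in which 48 of 83 genes were higher. SLC12A7 was also higher against WT Ctr (1.31) and in WNK2- Sor against WT Sor (1.19), while STK39 (0.17) and OXSR1 (0.18) were not called against WT Ctr. In WNK2 trans Ctr against WT Ctr, STK39 stood at -0.69. CUL3, the scaffold of the ubiquitin ligase that removes WNK kinases, fell by 0.38, and CAB39L, a partner of SPAK and OSR1, fell by 0.53. Against WT Ctr CUL3 was not called (-0.20) and CAB39L was lower (-0.66).

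Genes that respond to tonicity went both ways: 6 of 18 tested were higher and 5 lower (median 0.18). AKR1B1 rose by 0.92 ± 0.11, the chaperone HSPA4L by 1.08 ± 0.15 and LRRC8E, a subunit of volume-regulated anion channels, by 0.83 ± 0.18. SGK1, a kinase induced by serum and hypertonicity, was lower at 2671, 2711, 2560 and 2621 against 4179, 3786, 4285 and 4209 (log2 fold change -0.64 ± 0.08, edgeR adjusted p = 2.47e-07). The water and glycerol channel AQP3 was lower too (-2.0). Against WT Ctr, AKR1B1 stood at 0.28 in WNK2- Ctr and -0.64 in WNK2 trans Ctr, and HSPA4L at 0.36 and -0.71.

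The largest rises, among protein-coding genes of at least 3 on the log2 CPM scale whose groups did not overlap, were led by PDE1C, ANKRD1 and GFRA1. PDE1C, a calmodulin-dependent cyclic nucleotide phosphodiesterase, was counted at 790, 1008, 1026 and 1045 in WNK2- Ctr and at 98.2, 45.1, 25.9 and 70.1 in WNK2 trans Ctr, a log2 fold change of 4.04 ± 0.24 (edgeR adjusted p = 4.59e-13). ANKRD1, an ankyrin-repeat protein induced by YAP and stretch, was counted at 3102, 2775, 2447 and 2746 against 179, 188, 166 and 167 (3.98 ± 0.15, edgeR adjusted p = 1.55e-16). GFRA1, the co-receptor of the neurotrophic factor GDNF, was counted at 1592, 1709, 1767 and 1704 against 121, 125, 100 and 117 (3.87 ± 0.13). In all 3 the lowest WNK2- library was several times the highest WNK2 trans Ctr one. They were followed by the membrane-bound ubiquitin ligase MARCHF4 (3.78), the solute carrier SLC35F3 (3.77), RELN, the secreted matrix protein reelin (3.74), CDH4, R-cadherin (3.70), and the actin-nucleating formin FMN2 (3.46). Against WT Ctr the same 8 genes stood between 2.15 (SLC35F3) and 4.20 (PDE1C). The libraries labelled WNK2 trans Ctr were themselves lower than WT Ctr, each at an edgeR adjusted p under 0.05, in ANKRD1 (-0.99), GFRA1 (-0.76), MARCHF4 (-1.03), SLC35F3 (-1.63) and CDH4 (-1.14). PDE1C (0.17), RELN (-0.16) and FMN2 (-0.41) did not pass that threshold.

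The largest falls by the same rule were led by SULF1 and SPRY1. SULF1, an extracellular sulfatase that trims heparan sulfate, was counted at 125, 142, 191 and 142 in WNK2- Ctr and at 18965, 16406, 15811 and 18930 in WNK2 trans Ctr (log2 fold change -6.87 ± 0.14, edgeR adjusted p = 8.49e-22). SPRY1, a feedback inhibitor of receptor tyrosine kinases, was counted at 25.6, 17.3, 47.4 and 25 against 2174, 2062, 2125 and 2199 (-6.20 ± 0.17, edgeR adjusted p = 1.55e-19). HAS2, the main hyaluronan synthase of chondrocytes, was counted at 256, 282, 331 and 310 against 9044, 7957, 6689 and 7732 (-4.74 ± 0.13, edgeR adjusted p = 1.55e-19). No library of one group came near the other group in these genes. The rest were thrombomodulin (THBD, -4.86), GAS1, a growth-arrest protein and hedgehog co-receptor (-4.39), the receptor phosphatase PTPRO (-4.14), and the insulin-like growth factor binding proteins IGFBP5 (-4.13) and IGFBP3 (-4.13).

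WT Ctr gave smaller falls. Against it, WNK2- Ctr was lower by a log2 fold change of -5.29 for SULF1, -4.52 for SPRY1, -3.09 for HAS2, -2.21 for THBD, -2.01 for IGFBP5 and -1.60 for IGFBP3. The libraries labelled WNK2 trans Ctr were themselves higher than WT Ctr, each at an edgeR adjusted p under 0.05, in SULF1 (1.58), SPRY1 (1.68), HAS2 (1.64), THBD (2.65), IGFBP5 (2.12) and IGFBP3 (2.53).

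**Figure D2:**
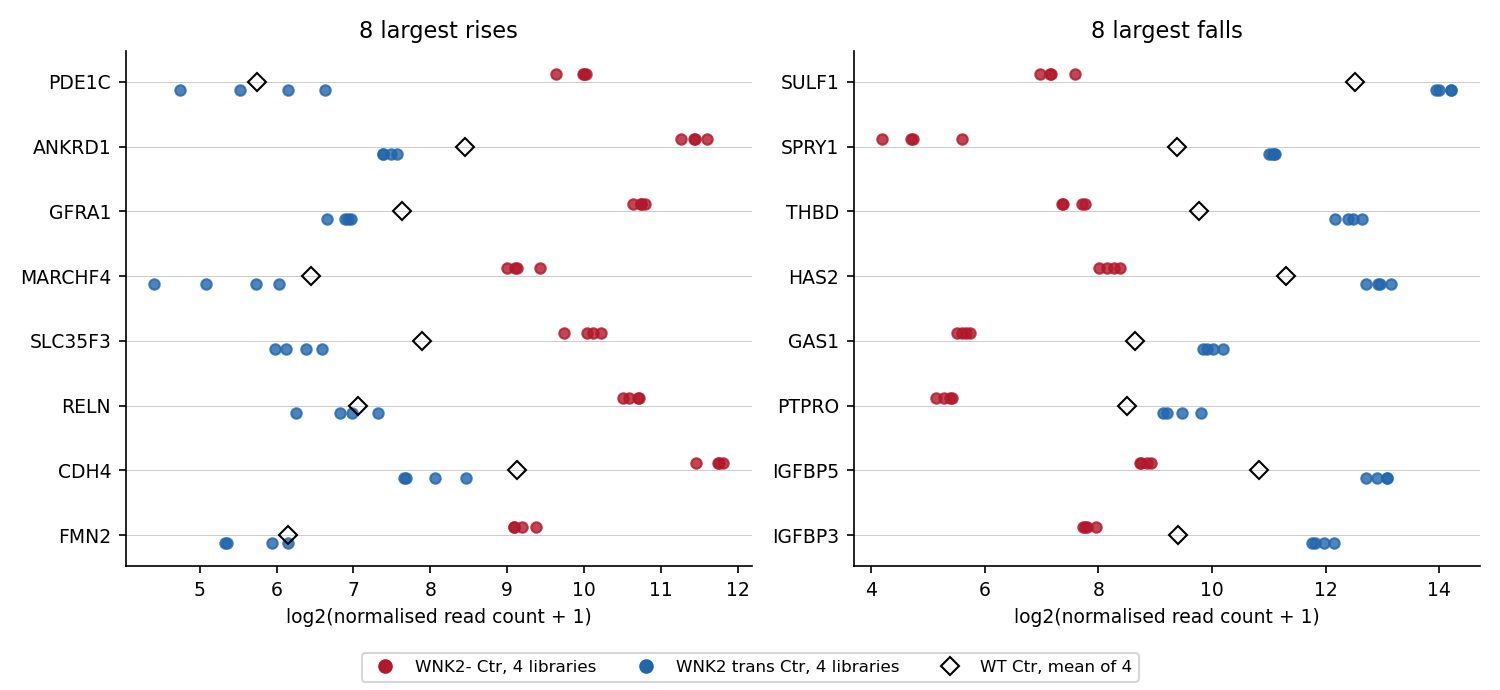
The 8 largest rises (left) and 8 largest falls (right) in WNK2- Ctr; each point is a library on the log2(normalised read count + 1) scale, red for WNK2- Ctr and blue for WNK2 trans Ctr, and the diamond is the mean of the 4 WT Ctr libraries. The red and blue points are apart in all 16 genes by the rule that chose them, and the diamond lies on the WNK2 trans Ctr side for PDE1C (52.6) and RELN (133).

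Cartilage matrix genes were lower in WNK2- Ctr or not called. Of 20 listed genes, 12 were tested, none was higher and 8 were lower, with a median log2 fold change of -1.32 (all genes tested, 0.01). COL2A1, the chain of type II collagen, was counted at 4.74, 5.47, 6.03 and 8.33 in WNK2- Ctr and at 160, 184, 195 and 178 in WNK2 trans Ctr (-4.83 ± 0.28, edgeR adjusted p = 3.27e-13). ACAN, aggrecan, was counted at 16.1, 12.8, 11.2 and 12.5 against 223, 130, 127 and 142 (-3.55 ± 0.38, edgeR adjusted p = 2.31e-08). HAPLN1, the link protein that ties aggrecan to hyaluronan, was counted at 246, 235, 266 and 265 against 956, 882, 696 and 871 (-1.75 ± 0.13). The groups were wide apart in all 3, but COL2A1 and ACAN were low genes even in WNK2 trans Ctr. Against WT Ctr, 5 of the 12 were lower. The chondrocyte label was only partly borne out by its markers. SOX9 had 0 counts in all 8 libraries, and it lies within SOX9-AS1 in GENCODE 29, so that its count is uncertain. The study reports SOX9 fold changes in this line by qPCR, but marks SOX9 as not detected in its RNA-seq. Members of other lists also had 0 counts in all 8 libraries, among them TNC, TIMP1, TIMP3, ACTA2, MYL9, CCN2, THY1, IFIT1, IRF1 and TAP1. The tallies of tested genes leave such members out, and whether their RNA was absent or not counted was not tested. The summed level of the 11 listed chondrocyte markers, of which 8 were tested, was 18.5 to 21.1 CPM in WNK2- Ctr and 58.8 to 80.7 CPM in WNK2 trans Ctr. In bulk RNA, fewer cells of a type and less RNA per cell cannot be told apart.

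Stromal matrix genes were called in 26 of 27 tested, 6 higher and 20 lower (median -0.80). Against WT Ctr 8 were higher and 11 lower (median -0.15). Besides SULF1, the falls were led by its paralogue SULF2 (1040, 1215, 1212 and 1129 against 15594, 16145, 18638 and 14921; log2 fold change -3.83 ± 0.10) and by COL3A1, type III collagen (1807, 1860, 2037 and 1840 against 19966, 19007, 18910 and 19335; -3.36 ± 0.09, edgeR adjusted p = 1.81e-19). The rises were smaller: COL8A1, a short-chain collagen (1.47), and the collagen cross-linking enzymes LOXL4 (1.89) and LOXL1 (0.88). The fibroblast markers moved with this list, 5 of 6 tested lower and none higher, with a summed level of 2627 to 2879 CPM in WNK2- Ctr against 5382 to 6163 CPM in WNK2 trans Ctr; the small leucine-rich proteoglycan LUM was counted at 5.68, 2.74, 2.59 and 0 against 302, 266, 250 and 224, and PDGFRB fell by 1.58. COL1A1 made up most of that sum, at median raw counts of 54706 in WNK2- Ctr and 80149 in WNK2 trans Ctr. The next highest marker, COL3A1, had 2124 and 16821.5. The part of the fibroblast markers in the matrix result was not tested.

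Matrix proteases and their inhibitors were called in 22 of 26, 6 higher and 16 lower (median -0.56). SERPINE2, a secreted protease inhibitor, was lower (-2.60 ± 0.11), as was PLAT, tissue plasminogen activator (-1.87 ± 0.10). The proteases split. MMP3, stromelysin, was counted at 98.5, 89.4, 68.1 and 81.6 against 4.97, 3.28, 2.25 and 5.75 (4.36 ± 0.31, edgeR adjusted p = 2.02e-11) and ADAMTS6 rose by 2.76, while the procollagen processing enzyme ADAMTS3 was lower (-4.22). The aggrecanase ADAMTS5 was counted at 24.6, 44.7, 44.0 and 38.3 against 225, 225, 97.8 and 208 (-2.31 ± 0.25, edgeR adjusted p = 2.60e-08). The collagenase MMP13 was counted at 36.0, 56.5, 69.0 and 54.1 against 146, 127, 124 and 103 (-1.21 ± 0.17, edgeR adjusted p = 2.46e-06). The groups did not overlap for these genes. MMP9 had the same normalised counts as MMP3 in 3 of the WNK2- libraries (89.4, 68.1 and 81.6), with 96.6 in the other and 49.2 to 65.5 in WNK2 trans Ctr. It was just called (0.52, adjusted p = 0.0484) and was not called against WT Ctr (-0.22).

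Cytokines and chemokines were called in 19 of 22, 7 higher and 12 lower (median -0.58). The interleukin-1 genes were higher: IL1B, counted at 734, 708, 667 and 715 against 78.3, 54.9, 101 and 97.7 (3.10 ± 0.17, edgeR adjusted p = 1.24e-13), and IL1A, which rose by 1.82 ± 0.27. Both lie in a stretch of chromosome 2 (chr2:108288639-121767853), in which 36 of 75 tested genes were higher and 12 lower. IL1B (2.43) and IL1A (1.34) were higher against WT Ctr as well. CXCL8, interleukin-8, turned direction with the reference: it was 716, 726, 697 and 776 in WNK2- Ctr against 257, 262, 265 and 256 in WNK2 trans Ctr (1.48 ± 0.13), but WT Ctr had a mean of 1472, so that WNK2- Ctr stood at -1.01 against WT Ctr. LIF, a cytokine of the interleukin-6 family, was higher here (1.30 ± 0.17) and was not called against WT Ctr (0.19). The chemokines CCL2 (-2.09 ± 0.14), CXCL16 (-2.13 ± 0.14) and CXCL12 (-1.25 ± 0.17) were lower. RIPK2, an adaptor of the NOD receptors, was higher by 0.31 (adjusted p = 0.0212) and was not called against WT Ctr (-0.08).

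Antiviral genes induced by interferon were lower. Of 29 tested, 18 were lower, 1 was higher and 10 were not called (median -0.73), and against WT Ctr 23 were lower and none higher. OASL was counted at 19.0, 24.6, 22.4 and 20 in WNK2- Ctr and at 618, 557, 600 and 692 in WNK2 trans Ctr (-4.83 ± 0.21, edgeR adjusted p = 1.51e-15). IFI44 was counted at 163, 140, 151 and 167 against 869, 749, 759 and 897 (-2.40 ± 0.16, edgeR adjusted p = 3.84e-12). XAF1, a promoter of apoptosis, was counted at 0, 2.74, 0 and 1.67 against 90.8, 88.5, 86.6 and 108; so few reads make its fitted fold depend on the prior count. The groups did not overlap for these 3 genes. The exception was MX1, at 48.3, 54.7, 66.4 and 72.5 against 33.6, 45.9, 47.2 and 36.8 (0.56 ± 0.18, adjusted p = 0.0117), which was not called against WT Ctr (-0.06).

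Many antiviral genes carry an interferon-stimulated response element (ISRE) close before their start. The 250 bases before the start of 24 of the tested members, from the RefSeq promoter table (GRCh38.p14), were searched for GAAANNGAAA on both strands. Only the first start site listed for each gene was searched. A match stood in 14 of the 24, in 10 of the 15 lower and 4 of the 8 uncalled ones, and in 3.07% of all 27305 promoters of that table; MX1 had none. Of these 10, 3 are printed 5′ to 3′ along the gene, with every match in capitals, to show where it lies; on the gene's strand it can read as the reverse complement. They are IFI44 (chr1:78649539-78649788, plus strand), HERC5 (chr4:88456869-88457118, plus strand) and BST2 (chr19:17405631-17405880, minus strand), chosen after their values were seen as the 3 of the 10 with the lowest p.
IFI44: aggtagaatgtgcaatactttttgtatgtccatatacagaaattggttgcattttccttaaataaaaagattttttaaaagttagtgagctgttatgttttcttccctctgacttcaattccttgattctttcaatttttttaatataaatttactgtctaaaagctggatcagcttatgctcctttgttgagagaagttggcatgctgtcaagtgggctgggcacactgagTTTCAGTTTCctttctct
HERC5: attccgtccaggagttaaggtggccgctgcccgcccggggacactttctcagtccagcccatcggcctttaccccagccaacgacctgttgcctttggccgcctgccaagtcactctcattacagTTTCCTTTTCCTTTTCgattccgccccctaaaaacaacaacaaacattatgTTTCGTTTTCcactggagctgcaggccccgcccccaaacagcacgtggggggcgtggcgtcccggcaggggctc
BST2: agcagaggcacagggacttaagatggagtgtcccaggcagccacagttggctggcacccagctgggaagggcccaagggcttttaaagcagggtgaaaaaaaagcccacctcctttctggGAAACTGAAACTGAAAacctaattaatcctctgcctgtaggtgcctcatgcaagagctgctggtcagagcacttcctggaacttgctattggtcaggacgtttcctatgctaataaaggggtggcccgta

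The ubiquitin-like ligase HERC5 was counted at 424, 339, 350 and 391 against 871, 821, 928 and 804 (-1.19 ± 0.10, edgeR adjusted p = 6.48e-10). BST2, the tetherin that holds budding virus at the cell surface, was counted at 76.7, 58.4, 78.4 and 66.6 against 354, 379, 730 and 419 (-2.74 ± 0.29, edgeR adjusted p = 1.85e-08). Neither pair of groups overlapped. A match describes the letters of the promoter and was not tested as a site.

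Of 14 tested genes of MHC class I presentation, 10 were lower and none was higher (median -0.89). HLA-B was counted at 1632, 1465, 1354 and 1442 against 2753, 3190, 4460 and 3405 (-1.23 ± 0.15), HLA-E fell by 1.01 and HLA-F by 2.12. Reads of these near-identical paralogues are uncertain, and 5 of the 14 lie in a lower stretch of chromosome 6; without them 5 of 9 were lower. In nucleic acid sensing 5 of 12 were lower and 1 higher (median -0.46). CGAS, the DNA sensor that makes cyclic GMP-AMP, was counted at 177, 134, 183 and 145 against 366, 306, 337 and 349 (-1.09 ± 0.14), and its receptor STING1 fell by 0.94 ± 0.15. MAVS, the mitochondrial adaptor of RNA sensing, was the one higher (0.35).

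TGF-beta and BMP signalling was called in 27 of 34, 10 higher and 17 lower (median -0.26). Among the ligands, BMP4 rose by 1.74 ± 0.11 and INHBA, the activin A chain, by 0.93 ± 0.09, while BMP2 was lower at 37.9, 21.0, 28.4 and 20.8 against 118, 129, 94.5 and 110 (-2.07 ± 0.19, edgeR adjusted p = 1.25e-09). TGFB1 was also lower (-1.0 ± 0.17), with 5999 in one WNK2 trans Ctr library and 4113 to 4297 in the other 3. The type II receptor TGFBR2 was lower (-1.03 ± 0.11). GREM1, the secreted BMP antagonist gremlin, was higher at 6451, 6153, 5944 and 6931 against 1134, 947, 865 and 1267 (2.60 ± 0.12, edgeR adjusted p = 5.14e-15). The GREM1 difference held no overlap and stood at 1.13 against WT Ctr, which lay between the groups with a mean of 2904. INHBA turned direction, at -0.37 against WT Ctr.

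WNT signalling was called in 32 of 41, 9 higher and 23 lower (median -0.49). The ligand WNT5B was counted at 1110, 1195, 1029 and 1062 against 131, 105, 90.0 and 95.4 (3.39 ± 0.15, edgeR adjusted p = 1.60e-15), and WNT7B rose by 1.78. The receptors went both ways: FZD7 (-1.81 ± 0.12) and the WNT5A receptor ROR2 (-1.24 ± 0.10) were lower, and its paralogue ROR1 was higher (1.36 ± 0.21). FRZB, a secreted WNT antagonist of articular cartilage, was counted at 809, 819, 697 and 749 against 1562, 1446, 1742 and 1560 (-1.04 ± 0.09, edgeR adjusted p = 4.50e-10).

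Among genes of FGF, EGF and ERK feedback 7 of 31 were higher and 15 lower (median -0.13). The ligands HBEGF (2.78 ± 0.10) and FGF5 (2.80 ± 0.23) and the cell-cycle target CCND1, cyclin D1, were higher, the last at 6183, 5923, 5596 and 6113 against 1056, 876, 725 and 1068 (2.68 ± 0.13, edgeR adjusted p = 1.03e-14). The feedback inhibitors SPRY1 (above) and SPRY2 (-1.49 ± 0.12) and the immediate early factor EGR1 (-2.86 ± 0.22) were lower. These members were named for the smallest p in each direction.

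**Figure D3:**
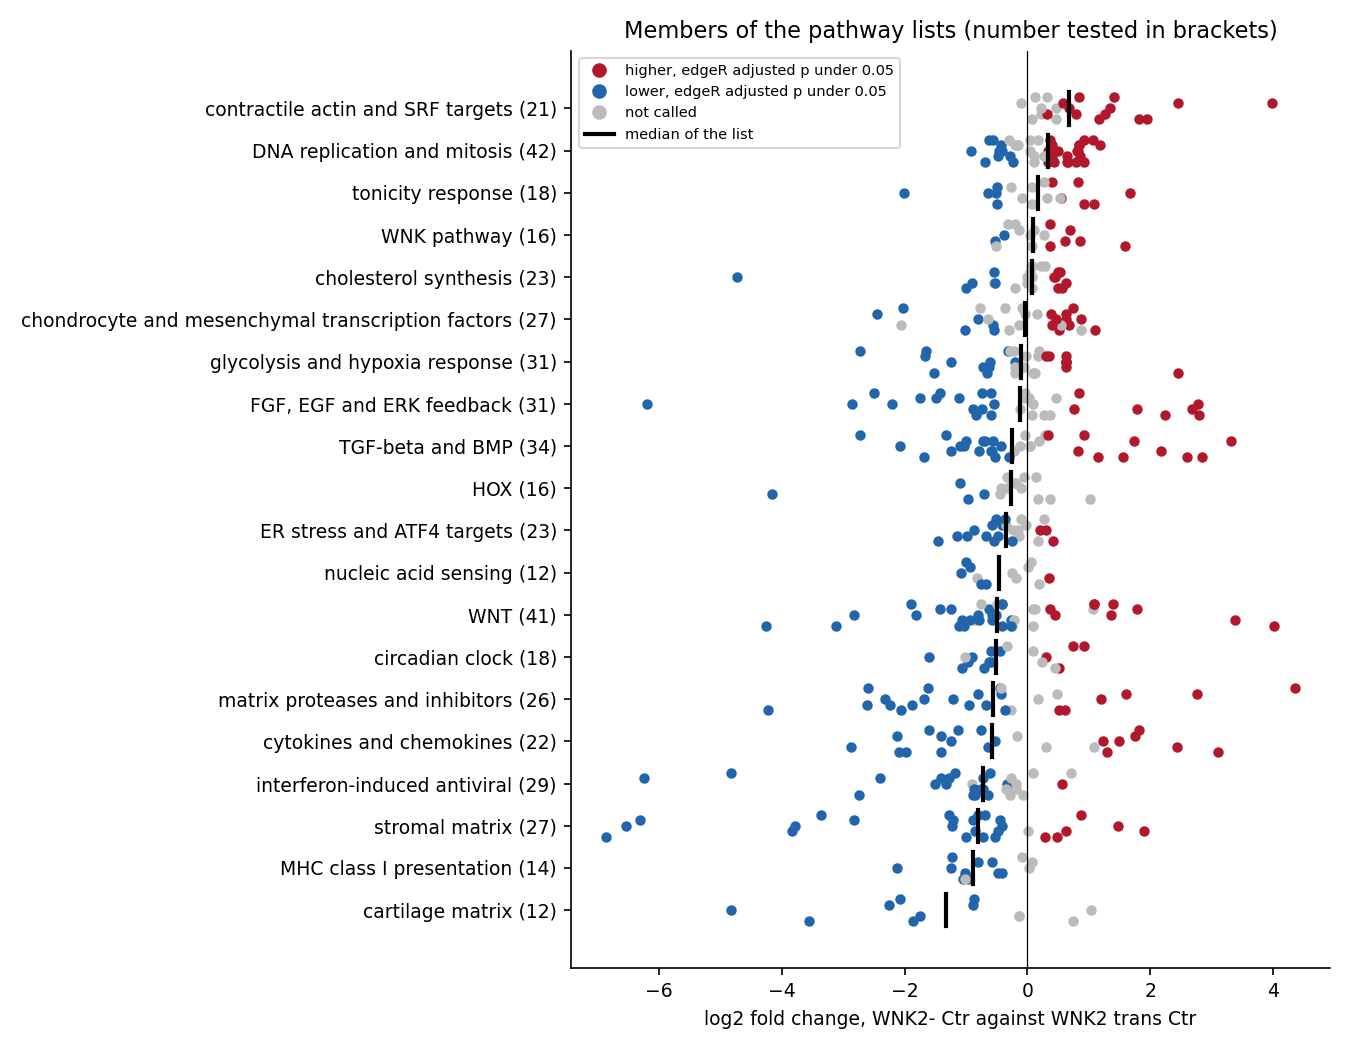
Log2 fold changes of WNK2- Ctr against WNK2 trans Ctr for the tested members of 20 pathway lists, ordered by the list's median (black bar); red and blue points passed an edgeR adjusted p under 0.05 as higher or lower, and grey points did not. The medians run from -1.32 (cartilage matrix) to 0.67 (contractile actin and SRF targets), and most lists hold points on both sides of 0.

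The contractile and SRF target genes had the highest median of the lists: 13 of 21 were higher, none was lower, and the median was 0.67. Besides ANKRD1 they were led by ACTN1, the actin cross-linker alpha-actinin-1, counted at 39458, 36507, 35047 and 36064 against 15361, 14302, 15754 and 15641 (1.27 ± 0.07, edgeR adjusted p = 1.44e-13), and by the receptor tyrosine kinase AXL (1.41 ± 0.09), a target of the related YAP programme. Both were higher against WT Ctr (1.19 and 0.81). MYLK, myosin light chain kinase, was counted at 1690, 1924, 1852 and 2247 against 844, 836, 513 and 847 (1.34 ± 0.15). FLNA, filamin A, was counted at 79817, 74722, 72800 and 76169 against 44604, 42320, 39586 and 43041 (0.84 ± 0.13), and the smooth muscle actin ACTG2 rose by 1.16 ± 0.16. The groups did not overlap in these genes.

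Serum response factor binds a CArG box, an A/T run between CC and GG. Its letters were found on either strand in the 250 bases before the start of 6 of the 18 members with a promoter in the table, 4 of the 10 higher and 2 of the 8 uncalled, and in 1.14% of all 27305 promoters. Of the promoters of tested genes 0.987% held them. Members were listed as SRF targets, so a higher share among them describes the list. Only the first start site listed for each gene was searched, so the MYLK window need not lie before the start of its kinase transcript. Of the 4 higher genes with a match, the 3 with the lowest p were MYLK (chr3:123620549-123620798, minus strand), ACTG2 (chr2:73892758-73893007, plus strand) and FLNA (chrX:154374635-154374884, minus strand), shown from 5′ to 3′ with each box in capitals.
MYLK: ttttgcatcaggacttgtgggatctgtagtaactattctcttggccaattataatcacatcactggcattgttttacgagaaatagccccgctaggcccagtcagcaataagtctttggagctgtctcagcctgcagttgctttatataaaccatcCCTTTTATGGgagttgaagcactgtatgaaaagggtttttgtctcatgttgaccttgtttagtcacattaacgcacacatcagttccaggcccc
ACTG2: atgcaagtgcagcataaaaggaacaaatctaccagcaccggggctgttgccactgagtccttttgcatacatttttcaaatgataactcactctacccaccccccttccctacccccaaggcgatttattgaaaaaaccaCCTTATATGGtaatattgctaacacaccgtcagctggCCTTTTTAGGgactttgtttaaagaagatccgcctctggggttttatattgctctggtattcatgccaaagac
FLNA: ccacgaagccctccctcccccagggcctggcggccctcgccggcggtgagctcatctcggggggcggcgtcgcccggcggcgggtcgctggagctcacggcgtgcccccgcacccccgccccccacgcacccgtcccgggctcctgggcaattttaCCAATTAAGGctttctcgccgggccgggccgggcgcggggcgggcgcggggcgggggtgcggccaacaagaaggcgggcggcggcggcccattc

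Transcription factors of chondrocytes and mesenchyme were called in 16 of 27, 10 higher and 6 lower (median -0.05, which changed sign under 8 alternatives). RUNX1 (0.74 ± 0.10), TWIST2 (1.11 ± 0.09) and FOXC1 (0.87 ± 0.14) rose, and SOX4 (-2.03 ± 0.10) and PRRX2 (-2.45 ± 0.21) fell. RUNX2, the factor of hypertrophy and bone, was counted at 384, 440, 439 and 486 against 711, 659, 549 and 641 (-0.55 ± 0.11, edgeR adjusted p = 0.000260), with no overlap. Of 39 HOX genes listed only 16 were tested, and 4 of these were lower and none higher (median -0.26), among them HOXA2 (-1.10 ± 0.17). HOXC12 had normalised counts of 0, 1.82, 2.59 and 1.67 against 18.7, 18.8, 55.1 and 26.4.

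Genes of DNA replication and mitosis were called in 31 of 42, 21 higher and 10 lower (median 0.33), and here the direction turned with the reference: against WT Ctr 4 were higher and 17 lower (median -0.19). The mitotic kinase AURKA was counted at 8526, 7892, 7868 and 7834 against 4050, 4028, 4486 and 4390 (0.92 ± 0.07), FOXM1 rose by 1.19 ± 0.10 and RRM2, a subunit of ribonucleotide reductase, by 0.84 ± 0.08. In WNK2 trans Ctr against WT Ctr, AURKA stood at -0.72, FOXM1 at -0.70 and RRM2 at -0.72. The replication genes MCM6 (-0.92 ± 0.11), PCNA (-0.69 ± 0.12) and MCM3 (-0.56 ± 0.09) were lower in WNK2- Ctr and were also lower against WT Ctr (-0.80, -0.78 and -0.58).

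The clock, the sterol pathway, the stress response of the endoplasmic reticulum and glycolysis were mixed. Of 18 clock genes 4 were higher and 9 lower (median -0.51): the activators NPAS2 (0.93 ± 0.11) and BMAL1 (0.31, adjusted p = 0.0243) and the repressor CRY1 (0.52 ± 0.08) were higher, and BHLHE40 (-1.07 ± 0.09), TEF (-0.97 ± 0.13) and NR1D1 (-0.71 ± 0.13) were lower. In cholesterol synthesis 7 of 23 were higher and 5 lower (median 0.08), against 1 higher and 9 lower relative to WT Ctr (median -0.22), with the enzymes SQLE (0.56 ± 0.07) and NSDHL (0.63 ± 0.13) up and the regulators SREBF2 (-0.90 ± 0.09) and INSIG1 (-1.0 ± 0.08) down. Of 23 genes of the ER stress and ATF4 lists 3 were higher and 12 lower (median -0.35), and the factor XBP1 (-0.86 ± 0.10) and the co-chaperone DNAJB9 (-0.99 ± 0.10) fell while the pseudokinase TRIB3 rose by 0.42. In glycolysis and hypoxia 8 of 31 were higher and 11 lower (median -0.10), and relative to WT Ctr 12 were higher and 5 lower (median 0.12). The hypoxia-induced peptide ADM (2.45 ± 0.13) and hexokinase HK2 (0.63 ± 0.09) were higher, and NDRG1 (-1.65 ± 0.09) and the glucose transporter SLC2A3 (-1.67 ± 0.10) were lower. None of the 27 cancer-testis genes listed had enough reads to be tested, and of 16 genes of the protocadherin beta cluster 1 was tested and not called.

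Markers of other cell types did not move as one. Of 5 endothelial markers tested 4 were higher and 1 lower, with CDH5, VE-cadherin, at 235, 267, 253 and 231 against 26.1, 17.2, 19.1 and 21.8 (3.56 ± 0.18, edgeR adjusted p = 2.00e-14) and TIE1 higher by 3.13, but PECAM1 lower by -1.59. KDR, the VEGF receptor, was at 25.6, 30.1, 20.7 and 22.5 against 0, 0.819, 0 and 4.6. The summed endothelial level overlapped, at 27.5 to 33.0 CPM against 24.7 to 41.0 CPM. CDH5 was close to WT Ctr in WNK2- Ctr (0.36) and lower than WT Ctr in WNK2 trans Ctr (-3.20). Of 6 epithelial markers 1 was lower and 1 higher, and in the latter (KRT8, 0.46, adjusted p = 0.0200) the groups overlapped. The leukocyte markers CD3E and CD68 were at 0 counts in all 8 libraries, and CD14, the one tested, was lower (-2.92).

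The same genotype contrast under sorbitol, WNK2- Sor against WT Sor, shares no library with the isotonic one but shares the clone. It called 7690 genes (46.3%; 23.7% higher and 22.7% lower). Of the isotonic calls 74.5% were called there in the same direction, which made up 76.8% of the sorbitol calls, and 38 genes were called in opposite directions. Of the 3100 isotonic 2-fold changes 2507 were called the same way under sorbitol. Across the 16600 genes, which are not independent replicates, the log2 fold changes had a Pearson r of 0.85 and a Spearman rho of 0.82. SULF1 stood at -6.87 isotonic and -6.84 in sorbitol, RELN at 3.74 and 3.65, COL3A1 at -3.36 and -3.57, and IL1B at 3.10 and 3.52. The partner groups were alike in some genes. Mean WNK2 was 302.5 in WT Sor and 252 in WNK2 trans Ctr, but 2520 in WT Ctr and 3032.5 in WNK2 trans Sor. For SULF1, in the same order, the means were 18145, 17528, 5882 and 5003. For IGFBP3 they were 761, 3907, 678 and 357, so that not every gene followed this. How much of the recurrence went with this likeness was not tested.

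The difference of the 2 contrasts was called in 562 genes (3.39%), 381 (2.3%) with a positive and 181 (1.09%) with a negative difference. That split was 689 and 522 once trends with GC content and length were removed. Among the endothelial, cytokine and BMP genes, CDH5 (3.56 isotonic, 0.25 in sorbitol, adjusted p of the difference 6.53e-10), BMP4 (1.74 and -0.13, adjusted p = 2.58e-08), LIF (1.30 and -0.14, adjusted p = 0.000566) and INHBA (0.93 and 0.02, adjusted p = 5.41e-05) rose in the isotonic contrast and were not called in sorbitol. The DNA sensor IFI16 was lower isotonic (-1.0) and not called in sorbitol (-0.01, adjusted p of the difference 2.09e-05). IGFBP3 (-4.13 and -1.63), IGFBP5 (-4.13 and -2.28), THBD (-4.86 and -3.31) and COL2A1 (-4.83 and -2.28) were lower in both, and more so in the isotonic contrast. RUNX2 (-0.55 and -1.73), FRZB (-1.04 and -1.98) and EGR1 (-2.86 and -4.93) were lower in both, and more so in sorbitol. The partner of the isotonic contrast carried the transfection label and that of the sorbitol contrast did not, so values against WT Ctr are set beside them. IGFBP3 stood at -1.60 in WNK2- Ctr against WT Ctr and at 2.53 in WNK2 trans Ctr against WT Ctr. For CDH5 the values were 0.36 and -3.20, for LIF 0.19 and -1.12, and for BMP4 1.59 and -0.15. In IGFBP3, CDH5 and LIF the WNK2 trans Ctr libraries differed from WT Ctr at an edgeR adjusted p under 0.05, and in BMP4 they did not pass it. Of the lists, contractile actin and SRF targets held 7 genes with a called difference, and their median was 0.67 isotonic and 0.12 in sorbitol, where 8 were higher and 2 lower. In the interferon list, which held 6, 25 of 29 were lower in sorbitol (median -1.05).

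**Figure D4:**
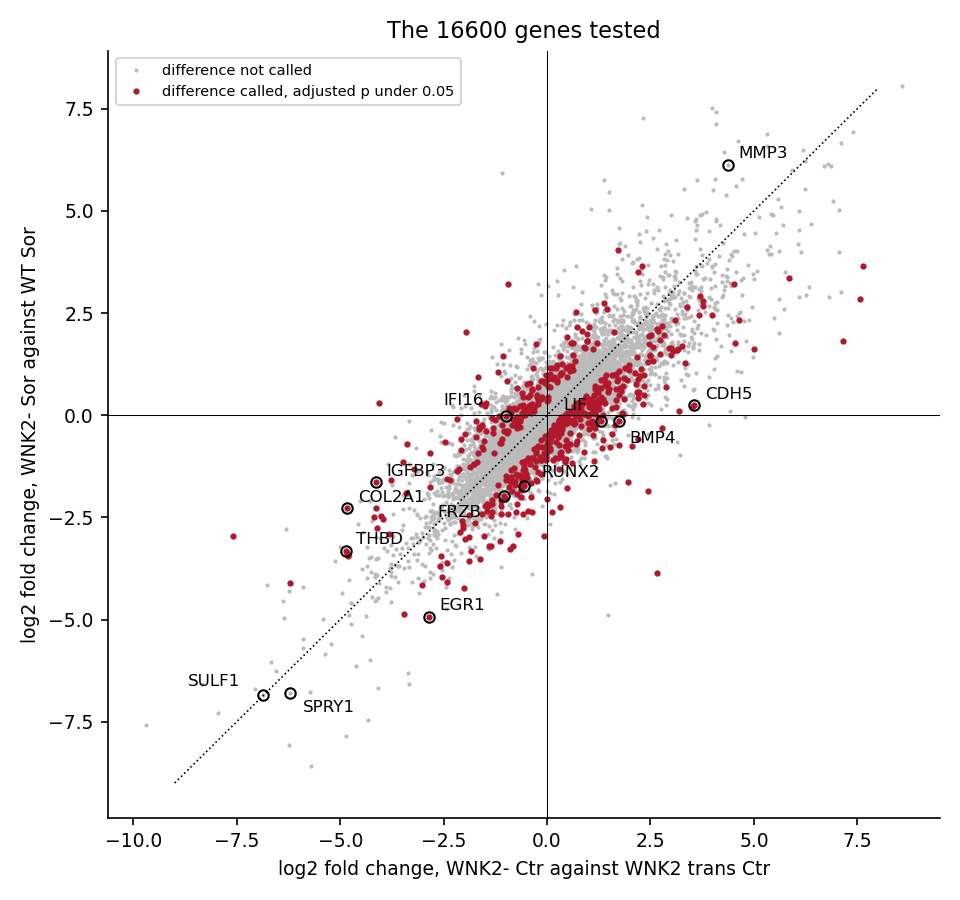
Log2 fold change of each tested gene in WNK2- Ctr against WNK2 trans Ctr (x axis) and in WNK2- Sor against WT Sor (y axis), with the line of equal change (dotted); red points are the 562 genes whose 2 fold changes differed at an edgeR adjusted p under 0.05. Most points follow the line (Pearson r 0.85), SULF1, SPRY1 and MMP3 at its ends, and CDH5, BMP4 and LIF lie near 0 on the y axis only; the labelled genes were chosen after their values were seen.

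Neighbouring genes often moved together. Over 15964 tested genes with a position on chromosomes 1 to 22 or X, the median log2 fold change was taken in windows of 40 genes in order along each chromosome, and windows of at least 0.5 in size that shared genes were joined. There were 22 stretches, 12 higher and 10 lower, which held 1809 genes (11.3%). In them 59.6% of genes were called, against 46.8% elsewhere. These values chose the stretches and describe them only. In the sorbitol contrast, whose libraries played no part in the choice, the medians had the same sign in 22 of 22 stretches and sizes from 0.16 to 0.74. Between WNK2 trans Ctr and WT Ctr the medians of the same stretches ran from -0.18 to 0.34.

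The strongest rise covered most of the short arm of chromosome 5 (chr5:92151-34918989, GRCh38): 48 of its 83 tested genes were higher and 10 lower, with a median of 0.86 (0.74 in sorbitol). It held BRD9, a chromatin-remodelling subunit (1.39 ± 0.07), TRIP13, a mitotic checkpoint ATPase (1.89 ± 0.10), and CEP72, a centrosomal protein (1.52 ± 0.08). A stretch of 169 genes on chromosome 14 (chr14:49570984-73223691) had a median of 0.57 in both contrasts, with 96 higher and 13 lower, and held ACTN1, glycogen phosphorylase PYGL (1.79 ± 0.09) and the chromatin reader DPF3 (3.05 ± 0.14). The lower stretches lay mainly on chromosomes 17 and 19. The largest, chr17:37084988-45247320, had 93 of 174 genes lower and 14 higher (median -0.55, -0.59 in sorbitol), among them STAT3 (-1.09 ± 0.06), the deacetylase HDAC5 (-1.50 ± 0.10) and the connexin GJC1 (-1.19 ± 0.09). On the short arm, chr17:1344272-12991643 had 89 of 165 lower (median -0.55), including the sodium pump subunit ATP1B2 (-4.12 ± 0.16) and the calcium pump ATP2A3 (-2.26 ± 0.15), as well as CXCL16 and XAF1. On chr19:47113274-52587174, 78 of 145 were lower and 6 higher (median -0.58, -0.62 in sorbitol), led by CPT1C (-3.78 ± 0.29), the synaptotagmin SYT3 (-2.40 ± 0.17) and LRRC4B (-1.82 ± 0.19).

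**Figure D5:**
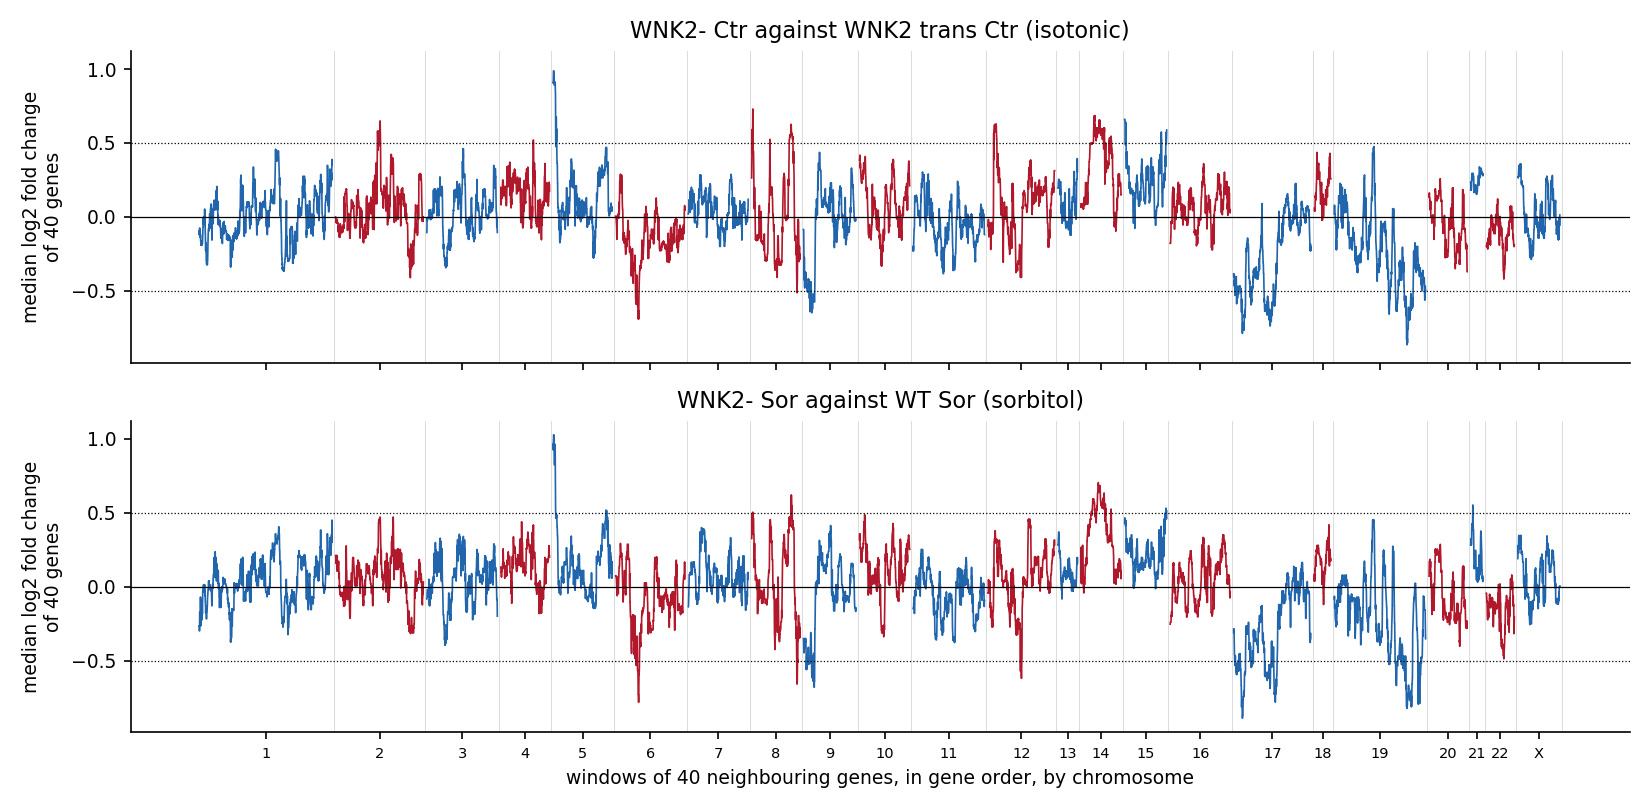
Running median log2 fold change of 40 neighbouring genes in gene order, chromosome by chromosome (alternating colours), for the isotonic contrast (top) and the sorbitol contrast (bottom), with dotted lines at -0.5 and 0.5. The rise at the start of chromosome 5, the rise on chromosome 14 and the falls on chromosomes 17 and 19 stand at the same places in both panels.

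Of the other genes named above, WNK4, HAS2, AQP3, ACAN, GREM1, BMP4, NR1D1, SQLE, AXL, TGFB1, NDRG1 and SLC2A3 also lie in such stretches. Not all of them went the way of their stretch: HAS2, ACAN, NDRG1 and SLC2A3 were lower in higher stretches. WNK4 and AXL were higher in lower stretches. The lists were counted again outside the stretches. Cartilage matrix had 7 of 10 lower (median -1.32), stromal matrix 19 of 26 lower and 6 higher (-0.76), interferon-induced genes 16 of 26 lower and 1 higher (-0.73), and contractile genes 10 of 17 higher and none lower (0.57). Of the circadian list, 3 of 18 tested genes lay in stretches, and without them the median moved from -0.51 to -0.33.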

How the data were processed

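RNA was poly(A)-enriched and sequenced from NEBNext Ultra libraries of T/C-28a2 cells. The authors deposited raw read counts per Ensembl gene, 1 file per library. The submitters' processing notes list FastQC 0.11.9, HISAT2 2.2.1, HTSeq 2.0.2, DESeq2 1.38.3 and GRCh38; the annotation release and strand setting are not given in the sources used here, so that overlapping and antisense genes are uncertain. The study calls its quadruplicates biological replicates. Library totals ran from 14153002 to 25664619 counts. Of 62703 identifiers, 42300 had a symbol and 58279 a GENCODE 29 position.

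In R 4.3.3, 16600 genes passed filterByExpr (minimum count 10, minimum total 15). All 24 libraries entered an edgeR 4.0.16 quasi-likelihood fit with TMM factors and 1 mean per group, and p-values were adjusted by Benjamini-Hochberg over all genes tested, with a threshold of 0.05. Normalised read counts are counts scaled to the mean effective library size, and errors of log2 fold changes are standard errors. Alternatives used DESeq2 1.42.0, other scalings, filters, samples, depth, a replicate block, and each library left out. Each group was compared by its labels. WNK2- Ctr and WNK2 trans Ctr replicates differed beyond sampling noise (chi-square per degree of freedom 3.67 to 54), so that none was counted as a copy. The highest values were those of WNK2 trans Ctr replicate 3, at 27.1 to 54 with the other libraries of its group. The remaining pairs of that group stood at 6.34 to 12.5. Named genes were WNK1 to WNK4, the 8 largest rises and 8 largest falls (protein-coding, groups apart, average abundance over the 8 libraries of 3 or more in log2 CPM), up to 3 per list and direction by smallest p, genes that the study's text names, and up to 3 per stretch. HERC5, BST2, MYLK, ACTG2 and FLNA were added after their values were seen. Some genes that the rule names are not reported here. Members and lists were chosen with earlier results of these data known. On simulated data for this comparison (16600 genes), 20 of 66 changes of 0.5, 59 of 67 of 1 and 66 of 67 of 2 on the log2 scale were called, with 4 unchanged genes called. Far fewer genes were changed in the simulation than were called in the data, so these rates need not hold for the data.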

Additional observations from a re-analysis of the deposited data

Results flagged for a closer look

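In 39 of the 141 genes named, the log2 fold change of WNK2- Ctr against WNK2 trans Ctr differed from that of WNK2- Sor against WT Sor in the edgeR test of the difference itself. Over all 16600 genes tested, 562 (3.39%) did. Many of the genes named were chosen for their size or p in the isotonic contrast, which enters this difference. The shares are therefore not comparable. The isotonic minus sorbitol difference was positive in CDH5 (3.31), EGR1 (2.07), BMP4 (1.87), TIE1 (1.53), ACTG2 (1.48), DPF3 (1.48), LIF (1.44), RUNX2 (1.18), ADM (1.14), MX1 (0.99), SLC35F3 (0.98), FRZB (0.95), INHBA (0.90), CDH4 (0.80), WNT5B (0.73), CXCL8 (0.70), SOX4 (0.66), TRIB3 (0.64), HBEGF (0.59), INSIG1 (0.58), AXL (0.56), FOXM1 (0.54) and AURKA (0.52). It was negative in COL2A1 (-2.55), IGFBP3 (-2.50), IGFBP5 (-1.85), THBD (-1.55), OASL (-1.46), ATP1B2 (-1.37), NDRG1 (-1.35), CCL2 (-1.23), IFI16 (-0.99), SULF2 (-0.92), HK2 (-0.84), CXCL16 (-0.81), SLC2A3 (-0.75), PLAT (-0.61), DNAJB9 (-0.60) and STAT3 (-0.50). The partner groups also differ in the transfection label, and in WNK2 trans Ctr against WT Ctr CDH5 stood at -3.20, IGFBP3 at 2.53, THBD at 2.65 and BMP4 at -0.15.

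In 20 of 282 groups of 4 libraries, 1 library's normalised read count stood apart from the other 3 by Dixon's criterion, which chance alone meets in about 1 group in 20. Replicate 1 of WNK2 trans Ctr stood apart above in ACAN (223), ADAMTS6 (256) and ROR1 (109) and below in LRRC8E (38.6). Replicate 3 of WNK2 trans Ctr stood apart above in TGFB1 (5999), LRRC4B (1266), MAVS (6930), MCM3 (8872) and KRT8 (11826) and below in ADAMTS5 (97.8), TGFBR2 (3038), FGF5 (16.9) and MYLK (513). Replicate 1 of WNK2- Ctr stood apart above in AURKA (8526) and MCM3 (5778) and below in PDE1C (790). Replicate 3 of WNK2- Ctr stood apart above in ADAMTS3 (15.5), CRY1 (1290) and INSIG1 (1965). Replicate 4 of WNK2- Ctr stood apart below in TWIST2 (1055).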

How the results depend on the processing

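Under 10 alternatives, WNK2- Ctr against WNK2 trans Ctr gave from 5338 genes (tested against a minimum log2 change of 0.3) to 9148 (GC content and length trends removed), and leaving out 1 library gave 7168 to 7592. WNK2 itself stayed higher in WNK2- Ctr, at 0.67 to 0.83, and at 0.57 to 0.77 with 1 library left out (highest adjusted p 0.0335). Called members of the lists numbered 257 to 363 under the alternatives and 315 to 333 with 1 library left out. WNK2- Sor against WT Sor called 5183 (minimum change of 0.3) to 9804 genes (only the groups compared), and 6898 to 7269 with 1 library left out. The difference of the isotonic and sorbitol contrasts was less stable: 562 genes became 254 with a minimum log2 change of 0.3, 1307 with only the groups compared and 1211 with GC content and length trends removed, where 56.9% rather than 67.8% were positive; the cause was not tested. It was 416 to 536 with 1 library left out. Of the 141 genes named, 128 kept their call under all alternatives run on them. MMP9 lost it under 9, BMAL1 under 8, KRT8 under 5, RIPK2 under 4, WNK4 and MX1 under 2 each, and OXSR1, CUL3, CAB39L, MAVS and TRIB3 under 1 each, while WNK1 and WNK3 gained one under 2 each; none changed direction. The median of the transcription factor list changed sign under 8 alternatives (-0.15 to 0.24). Replicate numbers did not pair the samples: same-numbered libraries correlated at -0.252 to 0.0236, none of the WNK2- libraries correlated best with its own number, and a replicate block gave 7816 genes. COL2A1 and XAF1 rested on few reads in WNK2- Ctr, whose libraries held 20441364 counts or more.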
